A study of Mus musculus with 15 samples.

Results

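The immediate early genes induced by neuronal activity were followed across 2 brain regions and 2 mouse lines by RNA-seq. Their members were the 10 genes Fos, Fosb, Junb, Egr1, Egr2, Egr4, Arc, Npas4, Nr4a1 and Nr4a3, taken by symbol from the 26628 genes of the expression table, and all 10 passed the filter on low values that left 15213 genes for testing. The samples were cerebellum (Ce) and striatum (St) of male mice of the Hsd:ICR strain, labelled as 6 weeks old with 7 days on a running wheel, from a line bred for high voluntary wheel running (Hi) or an unselected control line (Co). There were 4 CeCo, 4 CeHi, 4 StCo and 3 StHi samples. The members and the further gene lists below were chosen with earlier results of these data known. Their counts beside the share of all genes are therefore descriptions and not tests. Each type of line was represented by a single line of a replicated breeding experiment, so selection and the other differences between these lines cannot be told apart. All mice, Co mice included, had wheel access until they were taken from the cage during the dark phase, over a span of hours that is not given per sample. Line and the running done just before dissection therefore cannot be told apart either.

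Immediate early genes are transcribed within minutes of strong synaptic input or growth factor signalling, without the need for new protein. Calcium entry and the cAMP and MAP kinase pathways activate the factors CREB, SRF with its ELK partners, and MEF2 at their promoters. Most members encode transcription factors that pass the signal on to later genes, while Arc encodes a cytoplasmic protein that acts at synapses. In the striatum the same genes respond to dopamine and glutamate input onto the spiny projection neurons. In the cerebellum they respond to input from mossy and climbing fibres.

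Expression is given as normalized counts, which are the deposited fragment counts divided by a factor per sample, and 1 fragment was worth 0.841 to 1.3 normalized counts. The samples held 32909383 to 47485535 fragments. Differences are log2 differences of the normalized count plus 1 from a limma model of the 4 group means, always as St minus Ce or Hi minus Co, with the standard error (SE) of the model. P-values were adjusted by the Benjamini-Hochberg method over the 15213 genes, with a threshold of 0.05. The methods of the study describe samples from individual mice that were not siblings, while the labels give only a replicate number. The regions carried their own markers: the summed level of 10 Purkinje and granule cell markers was 339014 to 402302 in Ce and 11974 to 16269 in St, and that of 9 spiny neuron markers was 10401 to 11842 in Ce and 176899 to 243199 in St. All St samples also held 6 cortical excitatory neuron markers, with sums of 7580 to 11527 in StCo and 4270 to 9278 in StHi. Choroid plexus markers ranged from 942 to 115133 among the Ce samples. Among the Ce samples, CeHi replicate 3 stood apart for spiny neuron markers, whose median was 1.76% of the level in St, against 0.453% to 0.598% in the other 7. It had the highest Ce value of 7 of the 9 markers but the lowest sum of the 8 Ce samples, 10401 against 11159 to 11842. The sum gives most weight to the markers abundant in Ce. The highest marker of each Ce sample stood at 9.86% to 12.1% of its St level, far above the median marker. CeHi replicate 3 also had the highest sum of 4 blood markers in Ce, 4416 against 1134 to 2677 in the others.

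**Figure D1:**
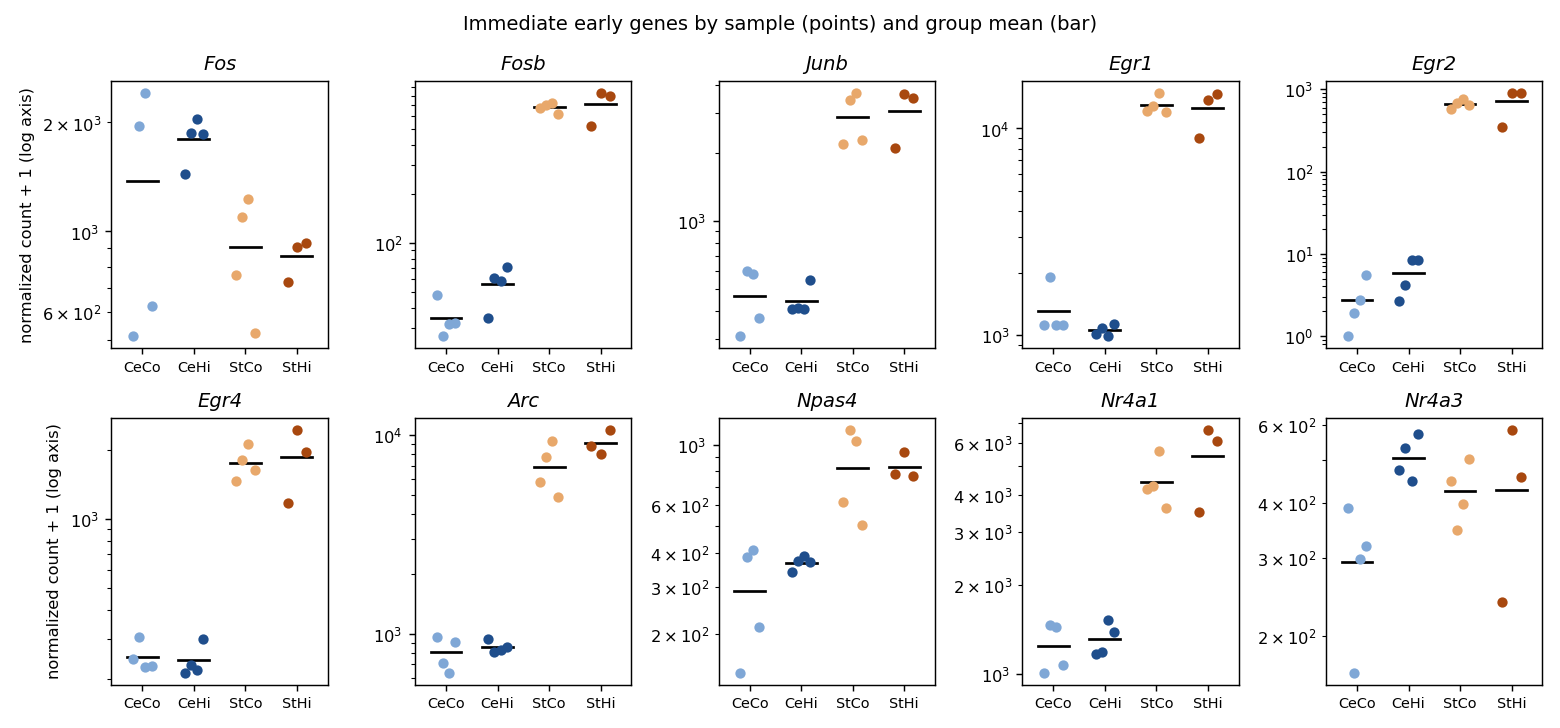
Normalized count plus 1 (log axis, scaled separately in each panel) of the 10 immediate early genes in each sample of the CeCo, CeHi, StCo and StHi groups. Points are samples and bars are group means. Fosb, Junb, Egr1, Egr2, Egr4, Arc, Npas4 and Nr4a1 lay higher in every St sample than in any Ce sample, Fos did not, and the CeCo samples of Fos spread from 514 to 2409.

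The members were far from equally expressed in the regions, and the striatum held more of most of them. In both lines 8 of the 10 members were higher in St than in Ce at an adjusted p under 0.05, namely Fosb, Junb, Egr1, Egr2, Egr4, Arc, Npas4 and Nr4a1. The share of all tested genes called higher in St was 36.9% in the Co line and 35.1% in the Hi line. These 8 members also had no overlap between the samples of the regions in either line, where 34.8% and 34.1% of all genes were higher without overlap. The median St minus Ce difference of the 10 members was 2.74 in Co and 2.84 in Hi, while the median over all tested genes was −0.012 in each. As these were bulk samples, fewer expressing cells and less RNA per cell cannot be told apart. The cortical marker sums were also higher in St (4270 to 11527) than in Ce (422 to 529). The part of cortical tissue in the regional differences was not tested.

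The EGR family held the largest contrast between regions. Egr2 encodes a zinc finger transcription factor that also directs myelination in Schwann cells. It was nearly undetected in Ce, with 0, 1, 2 and 5 fragments in the CeCo samples and 2, 3, 8 and 7 fragments in the CeHi samples. In St its normalized counts were 579, 687, 762 and 647 in StCo and 349, 894 and 896 in StHi. Every St sample was thus far above every Ce sample, and StHi replicate 0 was the lowest of the St samples. The fitted St minus Ce difference of Egr2 was 8.18 (SE 0.48, limma adjusted p = 2.8e-10) in Co and 6.95 (SE 0.52, limma adjusted p = 7.0e-09) in Hi. Because the Ce counts were so low, its size depended on the pseudocount, and in Co it was 9.46 with a pseudocount of 0.1 and 5.86 with a pseudocount of 10.

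Egr1, also called Zif268, is the member of the family most used as a marker of recent activity. Its normalized counts were 1114, 1907, 1114 and 1115 in CeCo and 1013, 1087, 989 and 1131 in CeHi, with 12123, 12901, 14822 and 12022 in StCo and 9016, 13762 and 14757 in StHi. The lowest St sample was well above the highest Ce sample, and CeCo replicate 1 stood above the other 7 Ce samples. The difference was 3.35 (SE 0.18, limma adjusted p = 3.3e-10) in Co and 3.54 (SE 0.19, limma adjusted p = 5.6e-10) in Hi. Egr4, a further zinc finger factor of the family, had lower levels, of 212 to 302 in Ce and 1165 to 2442 in St. Its difference was 2.82 (SE 0.19) in Co and 2.90 (SE 0.21) in Hi.

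Among the AP-1 subunits, Fosb and Junb were higher in St while Fos was not. Fosb, whose truncated product accumulates in the striatum with repeated stimulation, had normalized counts of 25.9 to 46.6 in CeCo and 33.6 to 69.7 in CeHi, with 618 to 719 in StCo and 518 to 829 in StHi. Gene counts do not tell the full-length and truncated transcripts apart. The difference of Fosb was 4.33 (SE 0.22, limma adjusted p = 1.1e-11) in Co and 3.69 (SE 0.23, limma adjusted p = 3.4e-10) in Hi. Junb, a dimerization partner of the FOS proteins, had 308 to 599 in Ce and 2097 to 3679 in St, with differences of 2.67 (SE 0.26) in Co and 2.77 (SE 0.28) in Hi. Junb overlaps Prdx2 on the opposite strand in the annotation, and whether the counting used strand is not given in the sources used here.

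Fos, the founding AP-1 gene and the most common marker of active neurons, went the other way in its means. Its normalized counts were 514, 1960, 2409 and 622 in CeCo and 1440, 1867, 2045 and 1858 in CeHi, with 758, 1099, 1229 and 524 in StCo and 725, 906 and 929 in StHi. In the Co line the regions overlapped, and the difference was −0.37 (SE 0.46, limma adjusted p = 0.49). In the Hi line every St sample was below every Ce sample, as for 34.1% of all genes, and the difference was −1.07 (SE 0.50). That difference missed the threshold in the model that shares 1 spread over the 4 groups (limma adjusted p = 0.076), and passed it with DESeq2 (adjusted p = 0.042) and when the Hi samples were fitted alone (limma adjusted p = 5.4e-05). The spread of Fos within groups was not alike: its coefficient of variation was 69.2% in CeCo against 14.2% in CeHi, and 35.6% in StCo against 13.1% in StHi. Leaving out CeCo replicate 0 or CeCo replicate 2 also brought the Fos difference in Hi past the threshold, with limma adjusted p-values of 0.043 and 0.041.

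Arc, whose mRNA travels to active synapses and whose protein drives removal of AMPA receptors, was among the higher genes of the striatum. Its normalized counts were 964, 715, 636 and 906 in CeCo and 940, 808, 832 and 858 in CeHi, with 5826, 7794, 9295 and 4861 in StCo and 8845, 8032 and 10631 in StHi. The regions did not overlap, and the difference was 3.09 (SE 0.18, limma adjusted p = 1.3e-09) in Co and 3.41 (SE 0.20, limma adjusted p = 1.3e-09) in Hi. Npas4, a factor induced by calcium entry that regulates inhibitory synapses, had the smallest called difference of the 8, of 1.56 (SE 0.32, limma adjusted p = 0.00055) in Co and 1.17 (SE 0.34, limma adjusted p = 0.0078) in Hi. Its normalized counts were 144, 384, 409 and 212 in CeCo and 340, 371, 387 and 369 in CeHi, with 616, 1133, 1028 and 505 in StCo and 781, 940 and 764 in StHi. The lowest StCo sample was only a little above the highest CeCo sample.

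The NR4A orphan nuclear receptors, which act without a known physiological ligand, split. Nr4a1, or Nur77, ranged from 1012 to 1518 in Ce and from 3498 to 6623 in St, and was higher in St by 1.83 (SE 0.20) in Co and 2.0 (SE 0.22) in Hi, with limma adjusted p-values of 1.6e-06 and 1.7e-06. Nr4a3, or Nor1, had 388, 164, 298 and 318 in CeCo and 472, 530, 446 and 571 in CeHi, with 447, 346, 397 and 502 in StCo and 237, 583 and 455 in StHi. Its levels in the regions overlapped in both lines. The Nr4a3 difference was 0.59 (SE 0.27, limma adjusted p = 0.064) in Co and −0.33 (SE 0.30, limma adjusted p = 0.33) in Hi. In Co it passed the threshold with DESeq2 (0.55, adjusted p = 0.031), with the Co samples fitted alone (limma adjusted p = 0.048), and without CeCo replicate 0, StHi replicate 0 or StHi replicate 1 (limma adjusted p-values of 0.028, 0.021 and 0.044).

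**Figure D2:**
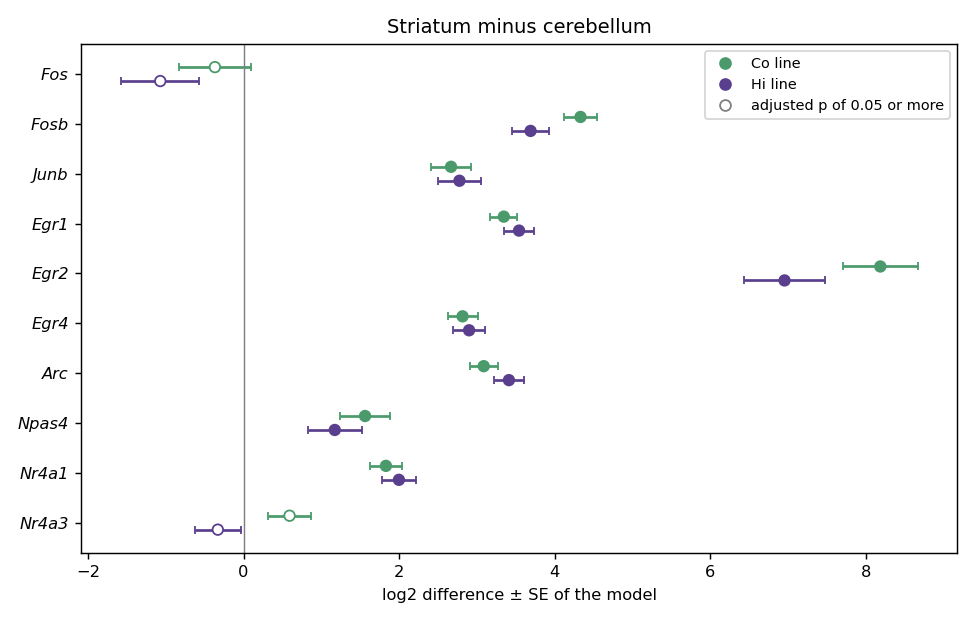
Fitted St minus Ce log2 difference of each immediate early gene (x axis) in the Co line and in the Hi line, with bars of 1 SE of the model. Filled points passed an adjusted p of 0.05, open points did not, and only Fos and Nr4a3 have open points.

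Levels per kb of transcript, which allow genes to be compared with each other, gave the members a different order in the regions. The length used was that of the principal transcript of each gene in the GENCODE annotation. In CeCo the order began with Fos, at 653 ± 452 normalized counts per kb (SD, n = 4), followed by Nr4a1 at 489 ± 93.8 (SD, n = 4), and these neighbours did not differ beyond their spread. Egr1 (293 ± 88.4), Arc (264 ± 50.7) and Junb (256 ± 81.3) came next in CeCo and were within 1 SD of each other, ahead of Egr4 (116 ± 17.1), Npas4 (79.3 ± 35.8), Nr4a3 (51.0 ± 16.4), Fosb (8.88 ± 2.38) and Egr2 (0.595 ± 0.649), and Npas4 and Nr4a3 lay within the SD of Npas4. Fos was also first in CeHi, at 855 ± 122 normalized counts per kb (SD, n = 4). In StCo the order per kb was Egr1 (2892 ± 289), Arc (2273 ± 650), Nr4a1 (1731 ± 333), Junb (1602 ± 424), Egr4 (817 ± 134), Fos (428 ± 152), Npas4 (227 ± 84.7), Egr2 (226 ± 25.9), Fosb (179 ± 11.5) and Nr4a3 (73.9 ± 11.7), each as mean ± SD with n = 4. Of these neighbours, Egr1 with Arc, Arc with Nr4a1, Nr4a1 with Junb and Npas4 with Egr2 lay within the SD of the more variable gene, and the other neighbours did not. In StHi Arc stood before Egr1, at 3001 ± 435 against 2790 ± 684 normalized counts per kb (SD, n = 3), a gap smaller than either SD. Fos thus moved from the first place in both Ce groups to place 6 in both St groups.

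The promoters of 3 members are shown because they span the range of the contrast between regions: Fos, at least as high in Ce by its means, Nr4a1, moderately higher in St, and Egr2, nearly undetected in Ce. Each run is the 250 bases before the gene start in RefSeq on GRCm38.p6, 5′ to 3′ on the plus strand, which is the strand of all 3 genes. They lie at chr12:85473640-85473889 for Fos, chr10:67537619-67537868 for Egr2 and chr15:101266596-101266845 for Nr4a1. Capitals mark TGACG, the core of the cAMP response element (written CGTCA on the other strand), in Egr2 also the CArG box to which SRF binds, and in Fos also the TATA box TATAAA.
Fos: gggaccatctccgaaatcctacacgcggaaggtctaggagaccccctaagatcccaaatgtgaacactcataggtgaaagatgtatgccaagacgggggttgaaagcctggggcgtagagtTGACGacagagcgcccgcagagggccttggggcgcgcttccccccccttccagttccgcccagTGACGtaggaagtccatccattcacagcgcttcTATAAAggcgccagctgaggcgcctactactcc
Egr2: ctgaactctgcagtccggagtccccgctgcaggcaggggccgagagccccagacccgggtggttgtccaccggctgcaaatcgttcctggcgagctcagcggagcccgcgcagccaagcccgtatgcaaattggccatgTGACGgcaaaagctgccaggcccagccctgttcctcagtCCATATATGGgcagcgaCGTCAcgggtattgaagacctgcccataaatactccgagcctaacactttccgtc
Nr4a1: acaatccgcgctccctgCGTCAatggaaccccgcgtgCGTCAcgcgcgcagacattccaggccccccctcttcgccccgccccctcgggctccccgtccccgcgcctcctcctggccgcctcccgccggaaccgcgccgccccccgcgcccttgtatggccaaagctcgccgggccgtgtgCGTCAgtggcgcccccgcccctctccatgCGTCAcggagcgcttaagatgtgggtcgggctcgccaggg
Of the 10 members, 8 had a window in the RefSeq table and Arc and Egr1 were not searched. All 8 windows held TGACG on at least 1 strand, as did 17.8% of all 32851 RefSeq windows of the same length. Nr4a1 and Nr4a3 held 4 copies each, Fos, Egr2, Egr4 and Npas4 held 2 each, and Fosb and Junb held 1 each, while 3.9% of all windows held 2 or more. The full palindrome TGACGTCA was in 0 of the 8 windows and 1.55% of all. Within these 250 bases, the CArG box was in Egr2 alone of the 8, and in 1.47% of all windows. Bases farther upstream were not searched, so the other members, Fos included, are not shown to lack a CArG box. Egr2 had 5 windows in the table, and the one nearest to the start of its principal GENCODE transcript was used. Of those 5, TGACG was in 3 and the CArG box in 4. The EGR site GCGNGGGCG was in Fosb and Nr4a1 and in 4.7% of all windows, the AP-1 site TGANTCA was in 0 of the 8 and 6.75% of all, and TATAAA was in Fos alone of the 8 and in 12.4% of all. Both strands were searched, and TGACG lies within TGACGTCA. These matches describe letters in a short window and not binding.

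The first question of the breeding design was whether the lines differed within a region. In Ce, 0 of the 10 members passed an adjusted p of 0.05 between Hi and Co with limma, 3 had an unadjusted p under 0.05, edgeR called 0 and DESeq2 called 2. Of all tested genes, limma called 5.94% in Ce and gave 19.7% an unadjusted p under 0.05. The share that edgeR or DESeq2 called was not counted, so their member counts have no share beside them. The 3 members with an unadjusted p under 0.05 were Fosb, Nr4a3 and Egr2, each with a positive difference. The median Hi minus Co difference of the 10 members in Ce was 0.29, with 7 of 10 positive, against a median of −0.0021 over all genes.

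Nr4a3 was the only member whose CeHi samples (446 to 571) did not overlap the CeCo samples (164 to 388), which held in the same direction for 6.56% of all genes. Its difference was 0.84 (SE 0.27), with a limma adjusted p of 0.093, and DESeq2 called it (0.79, adjusted p = 0.017). Over the 15 fits that left out a sample the difference ranged from 0.59 (without CeCo replicate 1) to 1.0, with limma adjusted p-values of 0.032 to 0.22, and passed in 1, that without StHi replicate 0. Fosb had a CeHi mean of 55.2 ± 15.3 (SD, n = 4) against 33.6 ± 9.0 (SD, n = 4) in CeCo, with CeHi replicate 0 inside the CeCo range. The Fosb difference was 0.68 (SE 0.22), with a limma adjusted p of 0.076 over the 4 groups, and DESeq2 called it (0.71, adjusted p = 0.026). It ranged from 0.56 (without CeHi replicate 3) to 0.90 when a sample was left out, with limma adjusted p-values of 0.0094 to 0.21, and passed in 2 of the 15 fits, those without CeHi replicate 0 or CeCo replicate 0. With sample quality weights it was 0.52, with a limma adjusted p of 0.16. Egr2 differed by 1.20 (SE 0.48, limma adjusted p = 0.17), on the 0 to 8 fragments given above.

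In the remaining cerebellar members the groups overlapped. The difference of Fos was 0.68 (SE 0.46, limma adjusted p = 0.47), and it rested on how the 4 CeCo samples spread: 514 and 622 lay below every CeHi sample, while 1960 and 2409 lay among or above them. Npas4 had the same form, with CeCo samples at 144 and 212 below and at 384 and 409 level with the CeHi range of 340 to 387, and a difference of 0.47 (SE 0.32, limma adjusted p = 0.46). Its coefficient of variation was 45.2% in CeCo and 5.39% in CeHi. Leaving out single samples moved the Fos difference between 0.32 (without CeCo replicate 0) and 1.06 (without CeCo replicate 2), with no call. Arc (0.11), Nr4a1 (0.08), Junb (−0.03), Egr4 (−0.06) and Egr1 (−0.28) had limma adjusted p-values of 0.41 or more.

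In St, 0 of the 10 members were called between the lines by limma, edgeR or DESeq2, and 1 had an unadjusted p under 0.05. Of all tested genes, limma called 2.66% in St and gave 14.1% an unadjusted p under 0.05. That member was Arc, with 9169 ± 1329 (SD, n = 3) in StHi and 6944 ± 1986 (SD, n = 4) in StCo, a difference of 0.43 (SE 0.20, limma adjusted p = 0.34). The 3 StHi samples of Arc lay inside or above the StCo range, and the groups overlapped. The other 9 had differences between −0.08 and 0.25 with limma adjusted p-values of 0.71 or more. Their SEs ran from 0.19 for Egr1 to 0.50 for Fos and 0.52 for Egr2, so these estimates were not equally wide. The median difference of the 10 members in St was 0.03, with 6 of 10 positive.

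**Figure D3:**
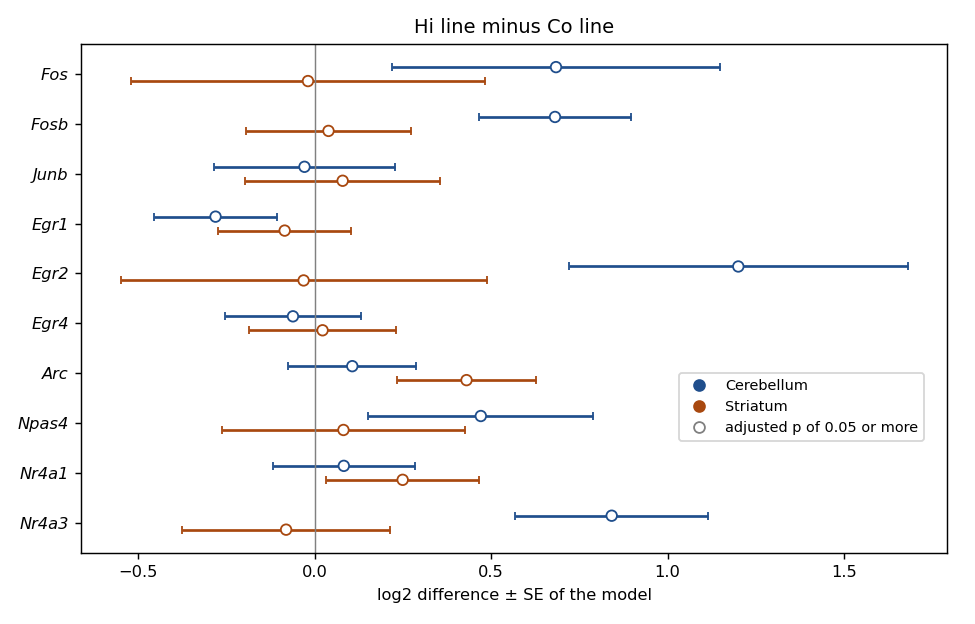
Fitted Hi minus Co log2 difference of each immediate early gene (x axis) in the cerebellum and in the striatum, with bars of 1 SE of the model. All points are open because no member passed an adjusted p of 0.05 in either region, and the cerebellar points of Egr2, Nr4a3, Fos and Fosb lie farthest to the right.

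The test of the line by region interaction, that is, of whether the Hi minus Co difference itself differed between St and Ce, called 0 of the 10 members with limma, edgeR or DESeq2. Of all genes 0.532% were called, and 9.56% had an unadjusted p under 0.05. Nr4a3 was the only member with an unadjusted p under 0.05, with a St minus Ce change in the line difference of −0.92 (SE 0.40, limma adjusted p = 0.47). Fosb followed with −0.64 (SE 0.32, limma adjusted p = 0.56). The cerebellar differences of these genes were therefore not shown to differ from their striatal ones. Over the mean of both regions, limma and edgeR and DESeq2 called 0 of 10 members, where limma called 8.48% of all genes, and Fosb alone had an unadjusted p under 0.05 (22.3% of all genes), at 0.36 (SE 0.16, limma adjusted p = 0.19).

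Within groups, several members were high or low together in a sample. How often all tested genes were highest or lowest in the same samples was not counted, so a shift of the whole library cannot be told apart. In StCo, replicate 2 had the highest value of 8 of the 10 members, all but Npas4 and Nr4a3, and replicate 3 the lowest of 6. In StHi, replicate 0 had the lowest value of 8 members, all but Arc and Npas4. That sample was also the shallowest, with 32909383 fragments, and had the highest cortical marker sum of the StHi samples (9278 against 4270 and 6911) and the lowest spiny neuron marker sum (181456 against 230761 and 237361). In StCo the order was another one. Replicate 3, lowest for 6 members, had the most fragments (47285376) and the highest spiny neuron marker sum (243199) of its group. Replicate 2, highest for 8 members, had 39591593 fragments and a sum of 179169. The part of depth and tissue make-up in the member levels was not tested. In CeHi, replicate 0 had the lowest value of 7 members and replicate 3 had the highest of 5 (Fosb, Junb, Egr1, Egr4 and Nr4a3). CeHi replicate 3 was the sample with the raised median but the lowest sum of spiny neuron markers in Ce, and with the highest blood marker sum. In CeCo, replicates 1 and 2 were the highest 2 samples for Fos, Junb, Npas4 and Nr4a1, and replicate 0 was the lowest for 6 members. Arc went the other way in CeCo, highest in replicate 0 and lowest in replicate 2.

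**Figure D4:**
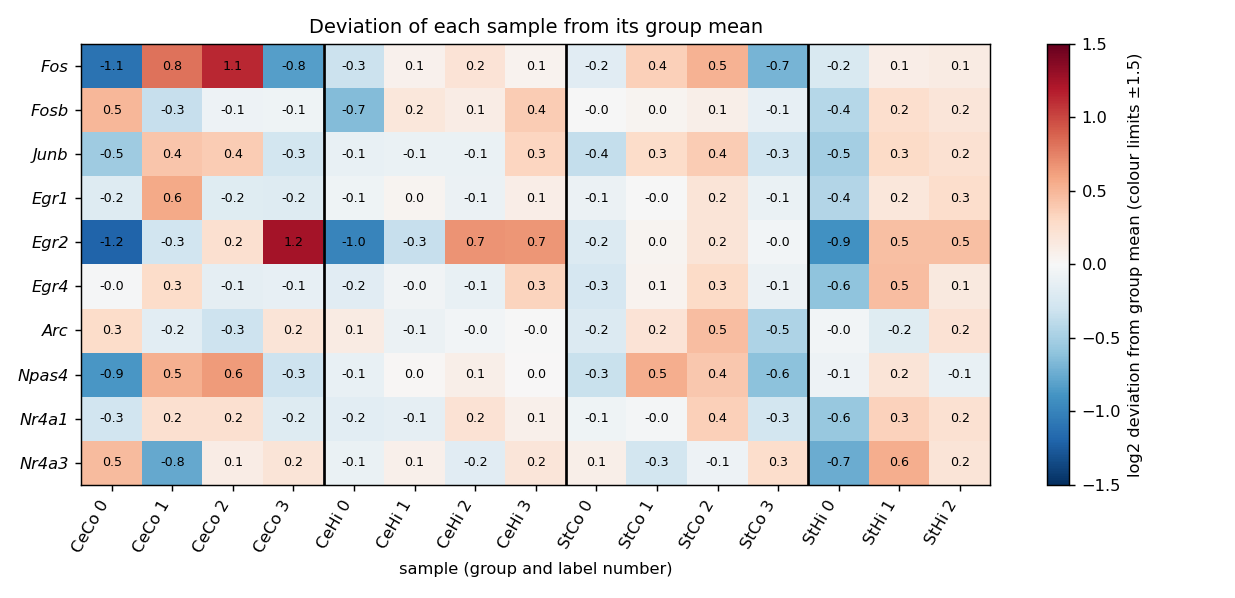
Log2 deviation of each sample (columns, grouped as CeCo, CeHi, StCo and StHi and numbered as labelled) from its group mean, for each immediate early gene (rows), with the value printed in each cell. StHi replicate 0 is below its group mean for most members, and Fos and Npas4 split the CeCo samples into a low and a high pair.

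As a description over the 15 samples, and with no test, the deviation of each member from its group mean was correlated with the mean standardized deviation of the other 9. Pearson's r was 0.892 for Nr4a1, 0.851 for Junb, 0.822 for Egr4, 0.637 for Egr1, 0.504 for Fos, 0.492 for Npas4, 0.473 for Egr2 and 0.328 for Fosb. It was 0.0715 for Arc and 0.0551 for Nr4a3, so these followed the rest least. The 8 other tested genes whose deviations were most like the mean of the members were Pcca (r = 0.913), Fam54b, Sco1, Irak1, Gstcd, 1700010I14Rik, Tcerg1l and Ramp2 (r = 0.863). All these points share the library, its depth and its tissue make-up, and the 8 genes were picked as the highest r of all tested genes.

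Other immediate early genes were described from a list of 43, of which 42 were tested and Fosl1 was too low. Their regional pattern was mixed: 19 were higher and 7 lower in St in the Co line, and 15 and 7 in the Hi line, with medians of 0.11 and 0.22. Of all genes, 36.9% were called higher and 37.8% lower in Co, and 35.1% and 35.4% in Hi. Plk2, a kinase of active synapses, was higher in St by 3.48 (SE 0.07) in Co and 3.26 (SE 0.08) in Hi. Dusp5, a nuclear phosphatase of ERK, was lower in St, with differences of −4.28 (SE 0.11) in Co and −4.07 (SE 0.12) in Hi. Dusp6, the cytoplasmic ERK phosphatase, and Ier5 were higher in St, by 1.83 (SE 0.07) and 1.80 (SE 0.08) in Co and by 1.51 (SE 0.07) and 1.92 (SE 0.08) in Hi. These 8 differences had limma adjusted p-values of 1.0e-11 or less. Egr3, an EGR gene outside the members, was higher in St in Co by 8.10 (SE 0.33, limma adjusted p = 4.3e-12). The Egr2 difference in Co, 8.18, was thus not particular to Egr2.

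Between the lines in Ce, 5 of the 42 rose and 2 fell in CeHi, where 2.94% of all genes were called higher and 2.99% lower. Klf10, a TGF-beta inducible repressor, had 718, 696, 493 and 529 normalized counts in CeCo and 336, 356, 344 and 352 in CeHi. All CeHi samples were below all CeCo samples, and Klf10 fell by 0.80 (SE 0.11, limma adjusted p = 0.00014). Ptgs2, the inducible cyclooxygenase, had 73.6, 90.0, 81.9 and 64.1 in CeCo and 61.4, 33.8, 32.4 and 33.8 in CeHi, a difference of −0.97 (SE 0.18, limma adjusted p = 0.0030). Its CeHi replicate 0 came close to the CeCo samples without reaching them. Sgk1, a kinase induced by glucocorticoids as well as by activity, rose by 0.40 (SE 0.09, limma adjusted p = 0.0098). Fosl2 (0.43, SE 0.10), Dusp6 (0.29, SE 0.07), Dusp4 (0.74, SE 0.20) and Plk3 (0.28, SE 0.08) also rose, with limma adjusted p-values of 0.018, 0.018, 0.044 and 0.050. The calls of Plk3, Dusp4, Fosl2 and Dusp6 were lost in 14, 10, 2 and 1 of the 15 fits that left out a sample, and those of Klf10, Ptgs2 and Sgk1 in 0. In St limma called only Sgk1 of the 42 (DESeq2 also Nr4a2, lower), where 1.49% of all genes were higher. It had 3320, 3505, 3721 and 3189 in StCo and 6630, 4913 and 6077 in StHi, and rose by 0.76 (SE 0.09, limma adjusted p = 9.1e-05). The summed oligodendrocyte markers were also higher in StHi, at 267664 to 307421 against 175136 to 256819 in StCo.

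Later effector genes, which the members' products and their upstream kinases are known to induce, were described from a list of 18. In St, 14 of them were higher and 3 lower than in Ce in the Co line, and 14 and 4 in the Hi line, with medians of 1.91 and 1.73. Of all genes, 36.9% were higher and 37.8% lower in Co, and 35.1% and 35.4% in Hi. The list includes Penk and Pdyn, neuropeptide genes that also mark classes of spiny neuron. Rasgrp1, an activator of RAS, was higher in St by 3.87 (SE 0.10) in Co and 3.54 (SE 0.10) in Hi, and Penk by 3.64 (SE 0.12) and 3.48 (SE 0.13). Pdyn, at 1.78 to 9.51 in Ce and 918 to 1215 in St, differed by 8.18 (SE 0.30) and 7.80 (SE 0.33). Nptx2 in Co (5.51, SE 0.19) and Rgs4 in Hi (4.97, SE 0.16) completed the 4 smallest p-values of each line, all with limma adjusted p-values of 1.7e-12 or less.

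In Ce limma called 3 of the 18 effectors higher in CeHi, where 2.94% of all genes were higher, and 0 lower. With edgeR 4 were called higher, with Bdnf added, and with DESeq2 5, with Bdnf and Penk added. The share of all genes called by edgeR or DESeq2 was not counted. Nptx2, a secreted pentraxin that clusters AMPA receptors, had 36.3, 35.7, 36.7 and 51.7 normalized counts in CeCo and 77.4, 96.0, 85.2 and 150.1 in CeHi. All CeHi samples were above all CeCo samples, by 1.29 (SE 0.19, limma adjusted p = 0.00037). The highest was CeHi replicate 3, and without it the difference was 1.09 (limma adjusted p = 0.00030). Vgf, a neuropeptide precursor, had 901, 579, 724 and 815 in CeCo and 974, 1292, 1246 and 1469 in CeHi, and rose by 0.72 (SE 0.13, limma adjusted p = 0.0043). Gpr3, a receptor that raises cAMP without added ligand, rose by 0.69 (SE 0.13, limma adjusted p = 0.0041), from 284 ± 57.2 to 455 ± 44.9 (SD, n = 4 each). Counting overlap alone, 7 of the 18 were higher in CeHi without overlap, against 6.56% of all genes, and the median difference was 0.30. As the list was chosen with earlier results of these data known, these shares describe the list and do not test it. In St 0 of 18 were called by limma, edgeR or DESeq2, and 4 had an unadjusted p under 0.05. Of all genes limma called 2.66% there, and 14.1% had an unadjusted p under 0.05. The interaction was called by limma for 0 of 18 effectors (4 with an unadjusted p under 0.05) and for 0 of the 42 other immediate early genes (9 with an unadjusted p under 0.05). For all genes these shares were 0.532% called and 9.56% with an unadjusted p under 0.05. Nptx2, at −1.25 (SE 0.27), and Klf10, at 0.70 (SE 0.16), were nearest, with limma adjusted p-values of 0.055 and 0.059. Here the tools differed: edgeR called the interaction of Klf10, and DESeq2 called those of Klf10, Nptx2, Bdnf and Nr4a2. The Hi minus Co differences in St were 0.04 for Nptx2 and −0.10 for Klf10.

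Over the mean of both regions, Sgk1 (0.58, SE 0.06), Gpr3 (0.51, SE 0.10), Nptx2 (0.66, SE 0.14) and Vgf (0.49, SE 0.10) rose in Hi, and Klf10 (−0.45, SE 0.08) and Ptgs2 (−0.71, SE 0.13) fell. These 6 calls were lost in 0 of the 15 fits that left out a sample. All 6 were called in Ce, but limma called only Sgk1 in St. The differences in St were 0.34 for Gpr3, 0.04 for Nptx2, 0.25 for Vgf, −0.10 for Klf10 and −0.44 for Ptgs2. A call over the mean thus does not show a change in both regions. Limma called 8.48% of all genes over this mean. Apold1 (0.42, SE 0.12), Fosl2 (0.26, SE 0.08), Nfil3 (0.38, SE 0.11) and Penk (0.32, SE 0.09) were also called, with limma adjusted p-values between 0.035 and 0.046, and lost the call in 10, 10, 10 and 8 of those fits. The summed level of 4 astrocyte markers was also higher in Hi without overlap in both regions, at 25501 to 29383 against 22150 to 23935 in Ce and 11050 to 13735 against 9898 to 10678 in St. In St the sums of 4 oligodendrocyte markers and of 4 blood markers (1209 to 1409 in StHi and 602 to 1079 in StCo) were higher in StHi without overlap as well, while both overlapped between the lines in Ce. The part of these sums in the differences, that of Sgk1 in St included, was not tested. No marker gene was called between the lines in Ce by limma, and Cbln1, En2 and Agt were called in St.

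**Figure D5:**
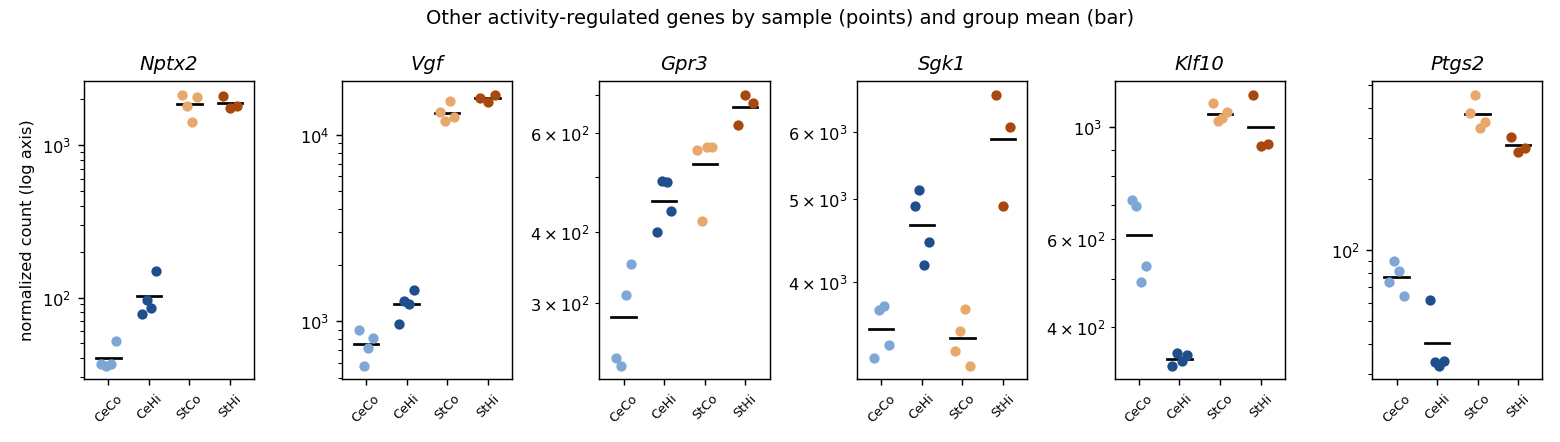
Normalized count (log axis, scaled separately in each panel) of Nptx2, Vgf, Gpr3, Sgk1, Klf10 and Ptgs2 in each sample of the 4 groups, with points for samples and bars for group means. In the cerebellum the CeHi samples of the first 4 genes lie above, and those of Klf10 and Ptgs2 below, all CeCo samples. Of these genes only Sgk1 was called between the lines in the striatum.

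Upstream of the members, 27 regulators were tested: kinases, CREB and SRF factors, their coactivators and related genes. In St, 13 were higher and 8 lower in Co (36.9% and 37.8% of all genes), and 12 and 9 in Hi (35.1% and 35.4% of all genes). Camk2a, the main synaptic calcium-dependent kinase of forebrain neurons, was higher in St by 4.83 (SE 0.09) in Co and 4.30 (SE 0.09) in Hi. Mkl2, an actin-sensing coactivator of SRF, was higher by 2.76 (SE 0.06) and 2.52 (SE 0.07). Rps6ka1, a kinase downstream of ERK, was lower, with a difference of −3.47 (SE 0.07) in both lines, while its paralog Rps6ka2 was higher in Co by 1.72 (SE 0.05). Between the lines, Camk2a (0.34, SE 0.09, limma adjusted p = 0.027) and Rps6ka2 (0.24, SE 0.05, limma adjusted p = 0.012) rose in CeHi and the other 25 were not called. Of all tested genes 5.94% were called in Ce. An unadjusted p under 0.05 was found there for 9 of the 27 and for 19.7% of all genes. CeHi replicate 3 had the highest Camk2a, 5789 against 4291 to 4654 in the other CeHi samples, and without it the difference was 0.25 (limma adjusted p = 0.053). In St 0 of 27 were called by limma and edgeR, DESeq2 called Mef2c lower, and 3 had an unadjusted p under 0.05. Limma called 2.66% of all genes there, and 14.1% had an unadjusted p under 0.05.

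Of 8 protein partners and corepressors of the members, 7 were tested and Batf3 was too low. In the Co line 4 were higher and 3 lower in St (36.9% and 37.8% of all genes), and in the Hi line 4 and 2 (35.1% and 35.4%). Arnt2, the dimerization partner of NPAS4, was higher in St by 2.30 (SE 0.06) in Co and 2.17 (SE 0.06) in Hi. Rxrg, a retinoid receptor that can pair with NR4A proteins, was higher by 8.03 (SE 0.27) and 7.03 (SE 0.30). Rxra rose in CeHi by 0.29 (SE 0.05, limma adjusted p = 0.0028), with 873 to 1007 normalized counts in CeCo and 1104 to 1183 in CeHi. Arnt fell there by 0.20 (SE 0.06, limma adjusted p = 0.045), a call lost in 12 of 15 fits that left out a sample. The other 5 were not called in Ce, where 5.94% of all genes were called. In St 0 of 7 were called by limma and edgeR, DESeq2 called Rxra, and 2 had an unadjusted p under 0.05. Among all genes 2.66% were called by limma in St, and 14.1% had an unadjusted p under 0.05. Over the mean of both regions Rxra rose by 0.24 (SE 0.04, limma adjusted p = 0.00073), where 8.48% of all genes were called.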

How the data were processed

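RNA-seq values of 4 CeCo, 4 CeHi, 4 StCo and 3 StHi samples were analysed, and samples were assigned to groups by their labels. The authors used TopHat2 to align paired-end reads to GRCm38 and Cuffnorm 2.2.1 to scale the counts by library size, and 1 StHi sample, set aside by them on a principal component analysis, is not analysed here. The deposited values are an expression signal: the fragment count of a gene divided by a factor per sample, not by length, although the table is named for values per kilobase. Between 99.6% and 99.8% of low values were whole multiples of 1 fragment (tolerance 0.1). Counting error is largest for low genes, such as Egr2 and Fosb in Ce. Genes reaching a CPM of 1 in 3 or more samples were kept. Values were scaled by trimmed mean of M-values (multipliers 0.992 to 1.01), transformed as log2 of the value plus 1 and fitted with limma 3.58.1 in R 4.3.3 (4 group means, trended and robust moderation), after the code was tested on simulated data. The log2 scale understates changes of low genes. edgeR 4.0.16 (quasi-likelihood) and DESeq2 1.42.0 were run on the recovered fragments as alternatives, and edgeR, which the study used, was not the main test because the values are scaled. Every share of all genes given here is from limma, and none was counted for edgeR or DESeq2. Genes named were the members, list genes passing the test between lines, and up to 4 per list with the smallest p between regions. The 8 genes most like the members were named too, and Egr3 was added as a further EGR gene. The members and lists were chosen with earlier results of these data known. Replicate numbers in the labels were checked as possible pairs and not used in the model.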

Additional observations from a re-analysis of the deposited data

Results flagged for a closer look

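In 81 groups of 4 samples (30 of them for the members), the gap of the highest or lowest sample to its nearest neighbour was divided by the range of the group and compared with Dixon's critical value for 4 samples, which chance passes in about 1 of 20 groups. For 2 members 1 sample lay apart: Junb in CeHi, where replicate 3 had 546 normalized counts against 405 to 408 in the others (ratio 0.979), and Egr1 in CeCo, where replicate 1 had 1907 against 1114 to 1115 (ratio 0.998). For 3 other genes 1 sample also lay apart: Gpr3 in StCo, lowest in replicate 1 with 418 against 558 to 567 (ratio 0.939), Nptx2 in CeCo, highest in replicate 3 with 51.7 against 35.7 to 36.7 (ratio 0.936), and Ptgs2 in CeHi, highest in replicate 0 with 61.4 against 32.4 to 33.8 (ratio 0.952). CeHi replicate 3 also had the highest median but the lowest sum of spiny neuron markers in Ce, and the highest blood marker sum. The part of these in its Junb level was not tested.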

How the results depend on the processing

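The 8 members higher in St kept that call in each alternative in both lines, and the interaction and the striatal line difference stayed at 0 members called. In Ce, DESeq2 called 2 members between lines and a model with the replicate number as a block called 1 (Egr2, adjusted p = 0.031). The share of all genes called under these settings was not counted. Leaving out single samples gave 0 to 1 calls in Ce (Fosb without CeCo replicate 0 or CeHi replicate 0, Nr4a3 without StHi replicate 0) and 0 to 1 over both regions (Fosb without CeHi replicate 0).

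Small striatal line differences changed sign. With sample quality weights they were 0.062 for Egr1, 0.22 for Egr2, 0.054 for Fos and 0.083 for Nr4a3. With edgeR they were 0.089 for Egr2 and 0.0081 for Nr4a3, and with DESeq2 0.089 for Egr2 and 0.0055 for Nr4a3. When single samples were left out they ranged from −0.22 to 0.14 for Egr1, −0.26 to 0.42 for Egr2, −0.21 to 0.33 for Egr4, −0.25 to 0.15 for Fos, −0.085 to 0.25 for Fosb, −0.063 to 0.34 for Junb, −0.12 to 0.26 for Npas4 and −0.36 to 0.29 for Nr4a3. In Ce the ranges crossing 0 were −0.17 to 0.038 for Egr4, −0.20 to 0.12 for Junb and −0.0071 to 0.17 for Nr4a1, and in the interaction −0.15 to 0.39 for Egr4, −0.035 to 0.36 for Junb and −0.0074 to 0.45 for Nr4a1. Between regions Fos in Co ranged from −0.74 to 0.0022 and Nr4a3 in Hi from −0.60 to 0.041. The causes were not tested.

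The replicate numbers were not taken as pairs. Deviations of same-numbered Ce and St samples correlated at 0.171 to 0.278 in Co (4 pairs, each sample best with its own number) and at −0.0751 to 0.0513 in Hi (3 pairs). In Co, replicates 1 and 2 were the highest samples of Fos, Junb, Npas4 and Nr4a1 in both regions. With the number as a block, the striatal line difference changed sign for Egr2 (0.18) and Npas4 (−0.020), and Fos was lower in St in Hi by a called difference of −1.23 (adjusted p = 0.013). With the number as a block within each line, 0 members were called in Ce (Egr2 adjusted p = 0.17), Fos in Hi was −1.07 (adjusted p = 0.071, not called), and Egr2 (−0.026) and Npas4 (0.082) in St kept their signs.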
